A study of Mus musculus with 3 samples.

Results

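Nkx2.2 occupancy was examined at regions lying deep inside genes, more than 100 kb from any gene start that the authors listed for the region. A region was taken when it overlapped no CpG island, was placed in at least 1 gene, and had a smallest distance to a listed start above 100000 bp. This gave 4483 of the 37271 regions in the deposited table, or 12.0% (exact Clopper-Pearson 95% interval 11.7 to 12.4%). They made up 28.8% of the 15586 regions that lay in a gene without a CpG island. The rule used position alone and neither signal nor calls, though it was chosen with earlier results of these data known. The intervals here and below cover counting error over regions only.

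The series compared oligodendrocytes (OLs) with the oligodendrocyte progenitor cells (OPCs) they came from, by chromatin immunoprecipitation and sequencing with a monoclonal antibody to Nkx2.2. Both states were C57BL/6 cells from the cortex at postnatal day 7, with 1.5e7 cells listed for each library. OLs were made by removing PDGF-AA from the medium and adding T3 at 40 ng/mL for 48 h. OPCs were selected with an antibody to PDGFRA and kept dividing in PDGF-AA (10 ng/mL), NT-3 (1 ng/mL) and CNTF (10 ng/mL). All cells were isolated and grown together, so 1 culture underlies both states. The third library, an input from OPCs and OLs, was not analysed here. With 1 library a state there was no test between states and no p-value, and no replicate stands behind any difference between the libraries. Expression was not measured, so the cell type labels could not be checked against marker levels. Depth is unknown, because the table gives signal and not read counts.

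Nkx2.2 is a homeodomain factor of the NK2 family that is needed for oligodendrocyte differentiation and acts largely as a repressor through Groucho corepressors. Genes that span very long stretches of genome are common among neural adhesion molecules, synaptic proteins and ion channels, and much of their length is intron. Enhancers often lie in such introns, acting on the host gene or on another gene, so a bound region inside a gene does not show which gene it serves. The table places these regions in genes without saying exon or intron, and that was not determined here.

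Sequence of the deep regions themselves is not printed, as no mm9 sequence was used here. The promoters of 3 genes that hold many of them, Opcml, Tnr and Rora, are printed instead, because each has 1 start in the RefSeq promoter table and an Nkx2.2 region at it, to which the deep regions are compared at the end of the results. They are the 250 bases before the start on the plus strand of build GRCm38.p6, at chr9:27791049-27791298 for Opcml, chr1:159523519-159523768 for Tnr and chr9:68653536-68653785 for Rora, whereas region coordinates are in mm9 as deposited. The letters AAGTG, the core that NK2 homeodomains recognise, were searched on both strands and would stand in capitals. They were found in 40.7% of the 32851 promoters of this length and in none of these 3, which says only that these letters are not in these windows. Other hosts fit the same terms, such as Npas3 (1 start, region listed at -659 bp), and are not printed.
Opcml: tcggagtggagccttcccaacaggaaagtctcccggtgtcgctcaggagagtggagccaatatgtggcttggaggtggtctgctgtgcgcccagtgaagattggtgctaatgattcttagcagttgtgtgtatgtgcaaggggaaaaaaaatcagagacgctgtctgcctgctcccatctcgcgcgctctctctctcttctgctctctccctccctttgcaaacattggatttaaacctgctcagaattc
Tnr: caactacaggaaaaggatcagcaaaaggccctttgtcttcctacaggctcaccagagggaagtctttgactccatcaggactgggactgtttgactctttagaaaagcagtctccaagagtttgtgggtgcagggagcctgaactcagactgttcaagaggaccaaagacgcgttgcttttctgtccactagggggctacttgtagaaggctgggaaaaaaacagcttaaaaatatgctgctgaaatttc
Rora: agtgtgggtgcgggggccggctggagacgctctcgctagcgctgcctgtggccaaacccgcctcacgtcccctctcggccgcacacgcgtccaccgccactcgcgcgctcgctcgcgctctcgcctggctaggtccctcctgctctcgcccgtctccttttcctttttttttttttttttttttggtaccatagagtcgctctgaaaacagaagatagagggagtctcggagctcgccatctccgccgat

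The regions lay at a median of 202079 bp from the listed start, with quartiles of 137374 and 335102 bp. They fell in 1173 host genes, the genes a region was placed in. Of these hosts 369 held 1 region, 492 held 2 to 4 and 312 held 5 or more. The 312 hosts held 2767 of the regions (61.7%), so many regions share a gene and are not independent of each other. Along 1 host, neighbouring regions stood a median of 22268.5 bp apart (quartiles 8037.5 and 50561 bp), and 973 of 3317 gaps were under 10 kb. None of the regions carried the authors' promoter feature. By chromosome, the regions took from 8.47% of all regions on X and 8.60% on chromosome 11 to 15.6% on chromosome 14.

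The label held, with one limit on what a start means. A region placed in a gene at this distance needs a gene longer than 100 kb, and 104 regions in 26 hosts lay more than 1 Mb from the start. The farthest, at 2913192 bp, was placed in Igk (chr6:70418597-70419047, 3.50 in OL and listed at 0 in OPC), which is the immunoglobulin kappa locus rather than an ordinary gene. Many genes have several starts, and the table gives 1 distance per gene. Of 855 hosts found in the RefSeq promoter table, 262 (30.6%) had 2 or more starts there, and in 115 (13.5%) these starts lay more than 100 kb apart, so a region far from the listed start can be close to another. The 2260 regions in the 593 hosts with 1 start in that table had OL calls at 84.6%, OPC calls at 37.7% and a median log2 ratio of 0.88, close to the values of the full set below.

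The 5 regions just inside the limit, in Rgl1, Clpb, Mef2c, 1700106N22Rik and 4931407K02Rik, lay 100004 to 100186 bp from a start. Their average signals in OL were 8.33, 5.4, 3.00, 4.91 and 17.8, and in OPC 1.39, 1.25, 7.17, 2.25 and 3.13. The 5 just outside lay 99839 to 99999 bp away, in or near Lmbr1, Mertk, Mrg1, Srgap2 and Frem2. These had 3.47, 4.58, 4.73, 1.4 and 2.75 in OL and 2.09, 1.39, 6.80, 4.50 and 4.37 in OPC. Both sets held regions with more OL signal and regions with more OPC signal.

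Most deep gene body regions were called in OLs, and fewer than that in OPCs. An OL call was present at 3748 regions (83.6%, 82.5 to 84.7%), beside 85.3% of all regions in the table. An OPC call was present at 1702 (38.0%, 36.5 to 39.4%), beside 38.6% of all regions. Calls in both libraries were seen at 967 (21.6%, 20.4 to 22.8%), beside 23.8% of all regions. OL alone was called at 2781 regions (62.0%), against 61.4% of all regions, and OPC alone at 735 (16.4%), against 14.7%. The shares of deep regions thus lay close to those of the whole table, and there were 2.2 OL calls for each OPC call, as over all regions (2.2).

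Signal followed the calls, and its scale limits what a low value means. The deposited average was 0 or at least 1 in every region of both libraries and never lay between, so it seems to leave out positions without signal, and 1.00 is the lowest value above 0. Of the 4483 deep regions, 39 were listed at 0 in OL against 347 in OPC, and 69 stood at exactly 1.00 in OL against 474 in OPC. Of all 37271 regions, 320 were listed at 0 in OL against 2253 in OPC. At exactly 1.00 stood 513 of all regions in OL against 3018 in OPC, so the contrast was one of the whole table. The median average signal was 5.0 in OL (quartiles 3.91 and 7.0) and 2.69 in OPC (1.5 and 4.74). At OL-only regions the medians were 5.27 in OL against 1.67 in OPC, and at OPC-only regions 2.27 in OL against 4.96 in OPC. Regions called in both had 6.85 in OL against 5.74 in OPC and were longer, at a median of 766 bp against 517 bp for OL-only and 506 bp for OPC-only regions. Every one of the 967 merges at least 2 called intervals, so part of that length comes from the joining of intervals.

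**Figure D1:**
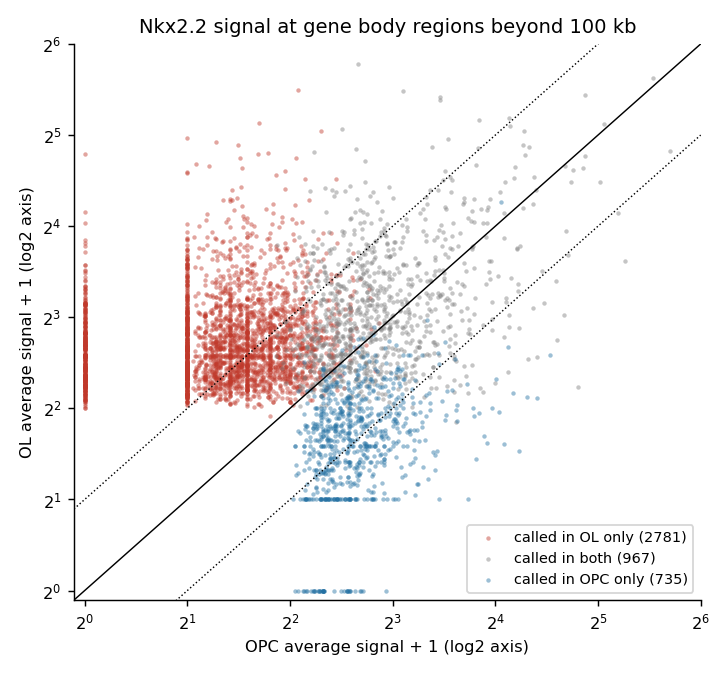
Average Nkx2.2 signal plus 1 in OL (vertical) against OPC (horizontal) on log2 axes, 1 point for each of the 4483 deep gene body regions, coloured by call; the solid line marks equal signal and the dotted lines log2 ratios of 1 and -1. The 2781 OL-only regions lie mostly above the line, the 735 OPC-only regions mostly below it, and the points along the left and lower edges are regions listed at 0 in one library.

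The ratio of OL to OPC signal was computed as log2((OL + 1) / (OPC + 1)), which understates the change at weak regions. Its median over the deep regions was 0.87 (quartiles 0.03 and 1.45), beside 0.74 over all regions. A log2 ratio of 1 or more was found at 1973 deep regions (44.0%, 42.6 to 45.5%), beside 37.5% of all regions. One of -1 or less was found at 389 (8.68%, 7.87 to 9.54%), beside 7.03% of all regions. Which side is larger depends on the scaling between libraries, which is unknown. With the median of the regions called in both set to 0, a shift of 0.24, the counts were 1515 and 537. Of all regions, 10146 (27.2%) and 3760 (10.1%) were then at these levels. With the median of all regions set to 0, a shift of 0.74, the counts were 780 and 892 of the 4483 deep regions. Of all regions, 4909 (13.2%) and 6522 (17.5%) were then at these levels, so the balance turned over the whole table too. The median of the deep regions was then 0.14. A median above that of the whole table was also seen at other gene body regions without a CpG island, as the next values show.

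The median ratio of gene body regions differed little with distance beyond 1 kb from a start. The share at a log2 ratio of -1 or less was higher in the deep ranges, mostly within overlapping intervals. The median log2 ratio was 0.84 at 2861 gene body regions 1 to 10 kb from a start and 0.88 at 7778 regions 10 to 100 kb away. Among the deep regions it was 0.89 at the 2219 regions 100 to 200 kb away, 0.84 at the 1400 regions 200 to 400 kb away and 0.88 at the 864 regions beyond 400 kb. OL calls were present at 86.0% of regions 1 to 10 kb away and 85.8% of those at 10 to 100 kb. In the 3 deep ranges, in order of distance, the OL share was 84.2%, 83.1% and 82.9%, with overlapping intervals (82.6 to 85.7%, 81.1 to 85.1% and 80.2 to 85.3%). OPC calls were present at 34.4% (32.6 to 36.1%) and 36.1% (35.1 to 37.2%) in the nearer ranges. In the deep ranges the OPC share was 37.6% (35.6 to 39.7%), 39.5% (36.9 to 42.1%) and 36.3% (33.1 to 39.6%), so that its highest value, at 200 to 400 kb, lay above the interval at 1 to 10 kb and its last value did not differ from it beyond the intervals. A log2 ratio of -1 or less took 6.36% (5.49 to 7.32%) and 6.90% (6.35 to 7.49%) of regions in the nearer ranges. It took 8.34% (7.22 to 9.57%), 8.64% (7.22 to 10.2%) and 9.61% (7.72 to 11.8%) in the deep ranges. These 3 intervals overlapped each other, and those up to 400 kb also overlapped the intervals of the nearer ranges. The interval beyond 400 kb did not overlap the nearer ones, but all of these intervals treat regions of 1 gene as independent. A log2 ratio of -1 or less took 10.4% of the 10929 regions without an assigned gene. These shares are given as a description, since regions of 1 gene are not replicates.

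**Figure D2:**
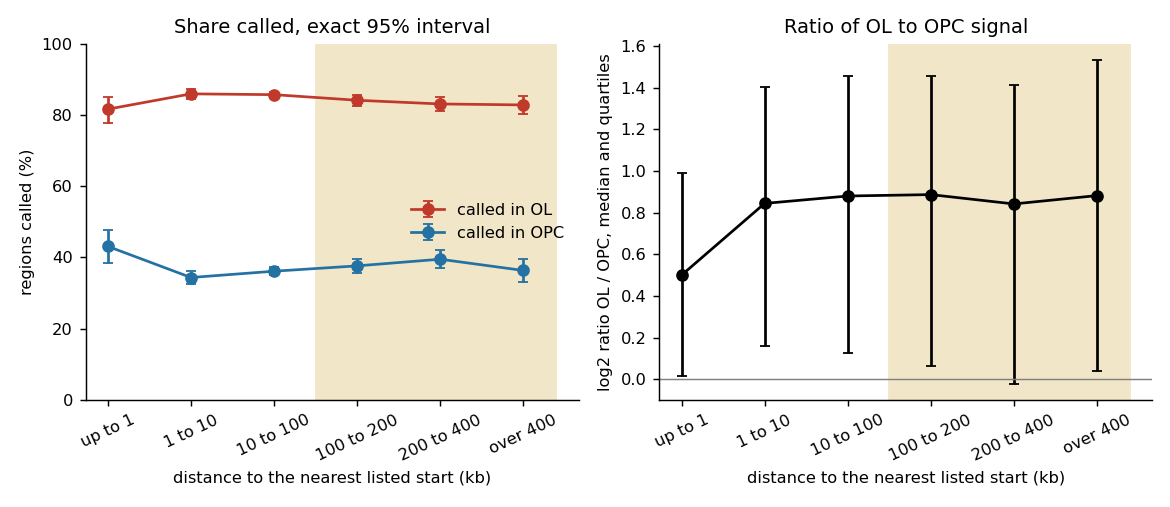
Gene body regions without a CpG island by distance to the nearest listed start in kb, with the deep regions on the shaded ground; the left panel gives the percentage called in OL and in OPC with exact 95% intervals, and the right panel the median log2 ratio (OL over OPC) with quartiles. OL calls run from 81.7% to 86.0% and OPC calls from 34.4% to 43.1%, and the median ratio is 0.50 up to 1 kb and 0.84 to 0.89 farther in.

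Deep regions were found among weak and strong calls, with a larger share among the strongest OPC calls than among the weakest. Of the OL calls, ranked by average signal and split into 10 equal groups, the strongest held 13.8% deep regions (12.6 to 15.0%) and the weakest 12.7% (11.6 to 14%), with 10.6% in the fifth. Of the OPC calls, the strongest group held 14.4% (12.6 to 16.3%) and the weakest 9.81% (8.32 to 11.5%). Over all calls the deep regions made up 11.8% in OL and 11.8% in OPC. Among the 1000 strongest calls they made up 14.5% in OL (12.4 to 16.8%) and 14.1% in OPC (12.0 to 16.4%). An average signal of 10 or more was reached at 482 deep regions in OL and at 189 in OPC, and at 86 in both libraries. How many of all regions reached it is not given here. Among the 100 strongest deep regions in OL were 31 of the 100 strongest in OPC.

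The strongest deep regions in OL lay in genes with varied roles. The highest was in Cugbp2 (now Celf2), a splicing and RNA stability regulator, at chr2:6628908-6629502, with 54.2 in OL against 5.33 in OPC. Auts2, a transcriptional regulator gene linked to neurodevelopment, had 48.3 in OL against 45.4 in OPC at chr5:132153154-132153967, 864653 bp from the start. Both regions stood out in OL, and of these only that of Auts2 was also among the 10 highest in OPC. Kcnip4, a gene for a protein that binds Kv4 potassium channels, had 44.1 in OL against 3.23 in OPC and no OPC call. Hdac4, a class IIa histone deacetylase gene, had 43.9 in OL against 7.59 in OPC. Cacna2d1, a calcium channel subunit gene, had 41.8 in OL against 10 in OPC. All of these but the Auts2 region had several times more signal in OL. Pcnx had 42.4 in OL against 28.3 in OPC. Mgmt, a DNA repair gene, had 40.8 in OL against 10 in OPC, and Utrn, the gene of the dystrophin relative utrophin, 35.3 in OL against 16.5 in OPC. The set of 10 closed with Odz4 (now Tenm4), a teneurin gene, at 34.8 in OL against 13.3 in OPC, and Rnf150 at 34.1 in OL against 2.25 in OPC.

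The strongest deep regions in OPC were mostly strong in OL too. Prdm16, a zinc finger transcription factor gene, led with 27.3 in OL against 50.95 in OPC at chr4:153873668-153874456. Cradd, a death domain adaptor gene, had 11.3 in OL against 37.4 in OPC. Dclk1, a gene for a microtubule-associated kinase, had 16.7 in OL against 35.6 in OPC. In these 3 regions OPC signal was the higher. Fndc3b had 33.8 in OL against 32.4 in OPC, and Frmd4a, a gene for a FERM domain scaffold, 26.4 in OL against 28.3 in OPC, so that the libraries were close. Adamts3, a procollagen protease gene, had 21.5 in OL against 31.5 in OPC. Zfp533 (now Zfp385b) had 23.96 in OL against 27.9 in OPC. Rbms1, an RNA-binding protein gene, differed most, with 3.71 in OL against 26.9 in OPC. All 10 of these regions, with Auts2 and Pcnx, were called in both libraries.

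The largest differences between the libraries were taken among deep regions above their own median of mean signal. The OL side was led by regions that were listed at 0 in OPC. Sh3kbp1, an endocytic adaptor gene, had 26.6 in OL at chrX:156361418-156362196, and Npas3, a neural basic helix-loop-helix PAS factor gene, had 15.4. Sorcs3, a sorting receptor gene, had 13.4 in OL, 1700106N22Rik (now Camkmt) 13.1, Exoc6b, an exocyst subunit gene, 12.8, and Csmd1 12.1, all listed at 0 in OPC. The others had a trace of OPC signal. Epb4.1l4a (now Epb41l4a) had 30.3 in OL against 1.00 in OPC, Khdrbs2, a splicing regulator gene, 29.4 in OL against 1.43 in OPC, and Nxph1, a neurexin ligand gene, 24.6 in OL against 1.13 in OPC. All of these were called in OL only.

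On the OPC side, the 10 lowest log2 ratios of these deep regions ran from -2.73 to -2.19. Chl1, a neural adhesion molecule gene of the L1 family, had 3.33 in OL against 20.2 in OPC at chr6:103624209-103624857. Tbc1d5, a regulator of Rab GTPases, had 3.36 in OL against 18.8 in OPC. Srgap2, a gene for a GTPase regulator of neuronal branching, had 2.06 in OL against 15.95 in OPC. These were called in OPC only, as were Kcnd3, a Kv4 potassium channel gene (2.08 in OL against 14.1 in OPC), Pard3b, a cell polarity gene (1.73 in OL against 13 in OPC), and Odz2 (now Tenm2), a teneurin gene (2.25 in OL against 13.8 in OPC). Cpa6, a carboxypeptidase gene, had 1.00 in OL against 9.92 in OPC. The remaining regions were placed in LOC100040253 (1.00 in OL against 12.3 in OPC) and 1700081D17Rik (1.90 in OL against 17.7 in OPC), which carry no current name here, and in Rbms1, given above, the only one of the 10 also called in OL.

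Regions of 1 host usually differed among themselves, but whether more or less than regions of different hosts was not tested. Of the 312 hosts with 5 or more deep regions, 196 held regions of all 3 kinds, called in OL only, in OPC only and in both. In 265 of them the log2 ratio was above 0 at some regions and below 0 at others, and in 151 at least 1 region was at 1 or more and at least 1 at -1 or less. The range of the log2 ratio within such a host had a median of 3.22. The middle of the hosts varied less, with quartiles of 0.50 and 1.12 for the host median and only 25 hosts with a median below 0. OL calls outnumbered OPC calls in 276 hosts, were equal in 20 and fewer in 16. In 82 hosts every deep region was called in OL, in 0 hosts was every one called in OPC, and in 16 hosts none was called in OPC. Over all regions of the table, 85.3% were called in OL, 38.6% in OPC, and 77.4% had a log2 ratio above 0. How many such hosts these shares alone would give was not computed. Neighbouring regions of a host had the same kind of call in 1598 of 3317 pairs (48.2%). Of all deep regions 62.0% were called in OL only, 16.4% in OPC only and 21.6% in both. What share of pairs would match without regard to host was not computed.

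**Figure D3:**
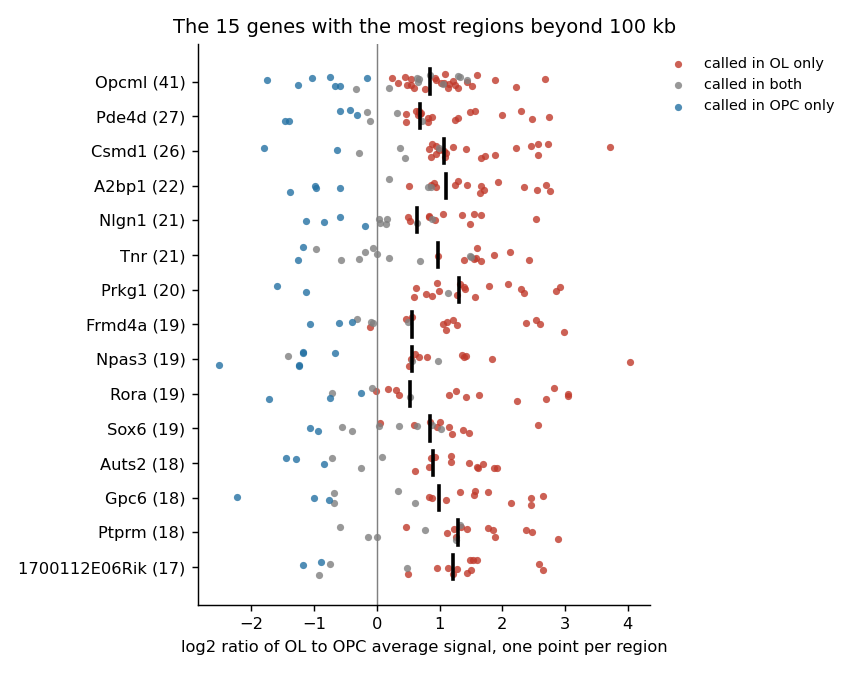
Log2 ratio of OL to OPC average signal at each deep region of the 15 hosts with the most regions, named with their number, with 1 point per region coloured by call and a black bar at the host median. Every host has its median above 0, from 0.53 in Rora to 1.31 in Prkg1, and all of them hold regions on both sides of 0.

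Opcml, a GPI-anchored adhesion protein gene of the IgLON family, had the most deep regions. It held 41, from 116817 to 1095071 bp into the gene, with OL calls at 34 and OPC calls at 17, and a median log2 ratio of 0.85. The strongest had 15.9 in OL against 1.63 in OPC at chr9:28321270-28321954, 722758 bp from the start. Others high in OL stood 190662 bp (14.1 in OL against 5.14 in OPC), 207825 bp (14.5 and 4.69) and 781068 bp (14.4 and 6.40) from the start, each called in both. No OPC value in Opcml was above 7.23. That value, with 2.44 in OL, came from a region 463959 bp in, called in OPC only. In the opposite direction a region 420708 bp in had 1.00 in OL against 5.75 in OPC. High OL regions of Opcml were thus spread over a long stretch, with OPC-only regions lying between them.

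The next hosts in number were also mostly adhesion, signalling and regulatory genes. Pde4d, a cAMP phosphodiesterase gene, held 27 deep regions, 22 called in OL and 9 in OPC, and none had an average above 9.42 in either library. Csmd1, a gene for a membrane protein with CUB and sushi domains, held 26, with 24 OL calls and 6 OPC calls. Its strongest region, 1501931 bp into the gene, had 18.9 in OL against 9.05 in OPC. A2bp1 (now Rbfox1), a neuronal splicing factor gene, held 22, with 18 OL calls and 7 OPC calls, and 19.8 in OL against 10.9 in OPC at its strongest. Nlgn1, which encodes a postsynaptic partner of neurexins, held 21, with 17 OL and 10 OPC calls. All of these had more OL than OPC calls. Prkg1, a cGMP-dependent kinase gene, held 20, with 18 OL and 3 OPC calls and a median log2 ratio of 1.31. Ptprm, a receptor tyrosine phosphatase gene, held 18, all called in OL and 6 in OPC, with 15.8 in OL against 1.27 in OPC at the strongest. Gpc6, a glypican gene, held 18 with 15 OL and 7 OPC calls. Rora, a nuclear receptor gene, held 19 with 16 OL and 6 OPC calls, and 1700112E06Rik (now Lrmda) 17 with 15 OL and 5 OPC calls.

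Auts2 and Npas3 showed different kinds of spread among the regions of a host. The range of the log2 ratio was 3.37 in Auts2, near the host median of 3.22, and 6.56 in Npas3. In Auts2, with 18 deep regions, 2 stood high in both libraries, the one 864653 bp in given above and another 312571 bp in with 21.4 in OL against 25.6 in OPC. The other 16 had at most 10.2 in OL against 9.77 in OPC. In Npas3, with 19 deep regions, the log2 ratio was 1 or more at 5 and -1 or less at 6. Its region 115646 bp in had 15.4 in OL and was listed at 0 in OPC, while one 733163 bp in had 3.52 in OL against 11.1 in OPC and one 640148 bp in had 3.42 in OL against 9.0 in OPC.

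**Figure D4:**
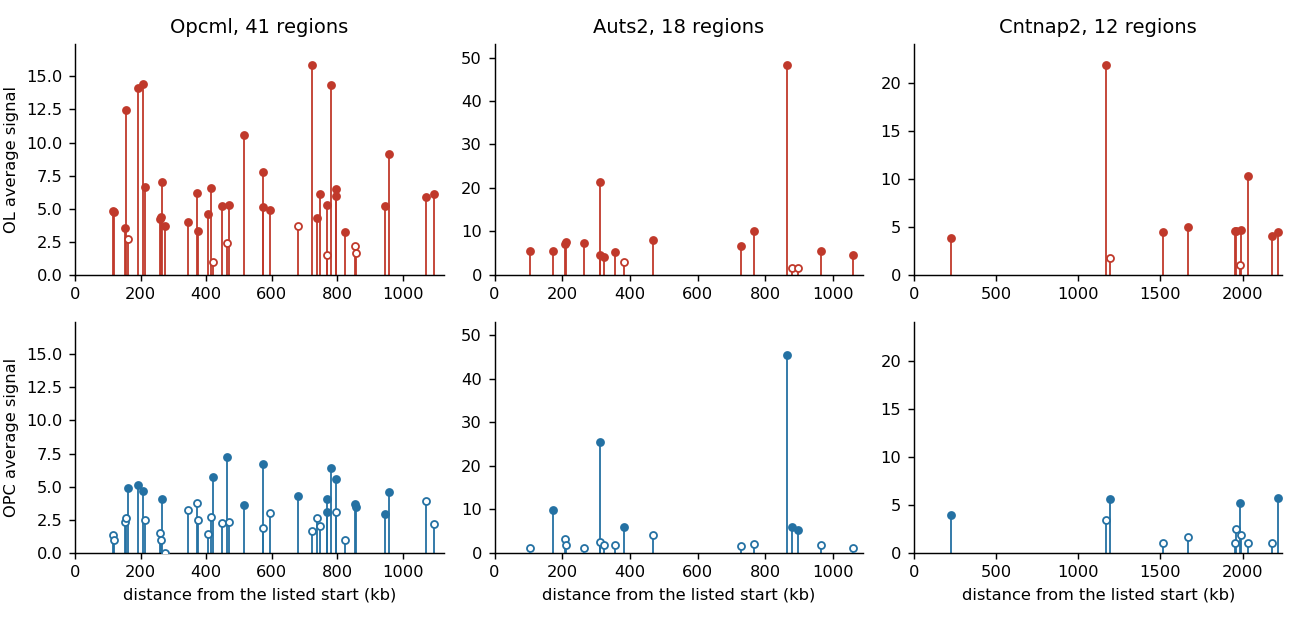
Average signal of each deep region of Opcml, Auts2 and Cntnap2 in OL (upper row) and OPC (lower row) against its distance in kb from the listed start; filled points were called in that library and open points were not. Auts2 has its high points at the same places in both rows, while the highest OL points of Opcml (15.9) and Cntnap2 (21.9) stand over open OPC points.

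In Kcnd3, the Kv4 channel gene above, opposite differences stood side by side. Regions 117433 and 118758 bp into the gene had 2.89 and 1.81 in OL against 15.4 and 5.61 in OPC. A few kilobases on, regions 123249 and 124400 bp in had 18.6 and 20 in OL against 3.55 and 4.30 in OPC. At 133625 bp the OPC signal was again the higher, as given above. Of the 8 deep regions of Kcnd3, 3 were at a log2 ratio of 1 or more and 3 at -1 or less.

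After the region placed in Igk, the 9 deep regions farthest from a start lay in Cntnap2 and Dmd. Cntnap2, which encodes a neurexin-related protein that clusters potassium channels beside the node of myelinated axons, held 12 deep regions, reaching 2213074 bp from the start. The strongest, 1168935 bp in, had 21.9 in OL against 3.44 in OPC, and the next in OL, 2032254 bp in, had 10.4 in OL against 1.00 in OPC. Apart from these, no region of Cntnap2 exceeded 5.0 in OL or 5.73 in OPC. Dmd, the dystrophin gene, held 11 deep regions, the last 2068675 bp from the start. OL calls were present at 5 of them and OPC calls at 7, and the median log2 ratio was -0.75. The highest had 7.86 in OL against 11.1 in OPC, and 6 regions were called in OPC only.

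Hosts at the ends of the range of host medians, picked after their values were seen, are given as description. Among the 312 hosts with 5 or more regions, Svil, a gene for the actin-binding protein supervillin, had the highest median at 2.82. Its 5 regions had 4.39 to 7.89 in OL and at most 1.88 in OPC, and none was called in OPC. Kcnh1, a voltage-gated potassium channel gene, had 8 deep regions, all called in OL and 0 in OPC, with 3.06 to 11.1 in OL and at most 3.00 in OPC. Grm8, a metabotropic glutamate receptor gene, had 5, all called in OL and 0 in OPC. Every region of these 3 hosts had more OL signal. At the other end, Spag16 had a median of -1.23 with 4 of 6 regions at -1 or less, and the highest had 3.52 in OL against 13.7 in OPC. Kcnd2, another Kv4 channel gene, had a median of -1.11, with OPC calls at 4 of 5 regions and OL calls at 2. Mtap4 (now Map4), a microtubule-associated protein gene, had 4 of its 5 regions called in OPC only, with 1.6 to 2.29 in OL and 4.88 to 8.00 in OPC. Daam1, a formin gene of the planar cell polarity pathway, had 4 of 6 called in OPC only.

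Genes known from the oligodendrocyte lineage had calls and ratios near those of the whole table. The gene lists used from here on were drawn up with earlier results of these data known, hold genes chosen partly for their length, and share 13 of their 419 genes with another list. Over the 15 lists 281 of the genes held a deep region. Each list is also to be read against all deep regions, of which 83.6% were called in OL and 38.0% in OPC. A log2 ratio of 1 or more took 44.0% of them and one of -1 or less 8.68%. Of 40 lineage genes 23 held a deep region, 207 regions in all, with OL calls at 178 (86.0%, beside 85.3% of all regions) and OPC calls at 85 (41.1%, beside 38.6%). Log2 ratios reached 1 or more at 79 (38.2%, beside 37.5% of all regions and the 44.0% of deep regions). They were -1 or less at 15 (7.25%, beside 7.03% and 8.68%). Their median log2 ratio was 0.75, beside 0.87 over all deep regions and 0.74 over all regions.

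Tnr, the gene of the matrix protein tenascin-R, held 21 deep regions, 19 called in OL, 12 in OPC and 10 in both. Its strongest had 16.1 in OL against 5.02 in OPC, 140140 bp in (chr1:161593148-161594933), and another 173132 bp in had 15.5 in OL against 2.79 in OPC. The OPC values of Tnr stayed between 0 and 7.50. Sox6, which encodes a SoxD factor that restrains differentiation of OPCs, held 19, with OL calls at 17 and OPC calls at 9. Its region 517210 bp in had 9.29 in OL against 14.1 in OPC, and one 406287 bp in had 10.4 in OL against 3.11 in OPC. The highest OL and the highest OPC value of Sox6 thus belonged to different regions. Tcf4, a basic helix-loop-helix partner of lineage factors, held 15 deep regions, 14 called in OL and 7 in OPC, with 10.5 in OL against 5.75 in OPC at the strongest. Sox5 held 9, all called in OL and 4 in OPC. Myt1l, a zinc finger factor gene, held 11, with 9 OL and 6 OPC calls.

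Further genes of the lineage list differed in how many deep regions they held. Xylt1, which encodes an enzyme that starts glycosaminoglycan chains on proteoglycans, held 12, with 11 OL and 3 OPC calls, and 28.3 in OL against 9.44 in OPC at the strongest. Lhfpl3 held 12, with 9 OL and 5 OPC calls, and Frmd4a 19, with 16 OL and 7 OPC calls. Itpr2, an inositol trisphosphate receptor gene, held 4. A pair of these, 101717 and 102696 bp in, had 13.1 and 12.9 in OL against 4.50 and 2.00 in OPC. Fyn, a Src family kinase gene of myelinating cells, held 5, of which one 127668 bp in had 5.77 in OL and was listed at 0 in OPC, and one 101906 bp in had 2.00 in OL against 5.61 in OPC. Tcf7l2, a Wnt effector of differentiating cells, held 2, both called in OL only, with at most 6.93 in OL against 1.00 in OPC. The compact myelin gene Mbp held none.

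On the list of IgLON and other immunoglobulin-family adhesion genes 18 of 23 held one, 176 regions in all, with OL calls at 144 (81.8%, beside 85.3% of all regions), OPC calls at 68 (38.6%, beside 38.6%) and a median log2 ratio of 0.91. Ratios of 1 or more were seen at 80 (45.5%, beside 37.5% of all regions) and of -1 or less at 16 (9.09%, beside 7.03%). After Opcml came Cadm2, Hnt (now Ntm, another IgLON) and Kirrel3 with 17 regions each. Hnt had 12 OL calls and 5 OPC calls and no region called in both. The strongest region of Cadm2 had 7.16 in OL against 16.5 in OPC, and that of Kirrel3 3.24 in OL against 10.2 in OPC, although the median log2 ratio was 1.04 in Cadm2 and 1.03 in Kirrel3.

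Synaptic organisers, the adhesion and scaffold proteins that build synapses, held 177 deep regions in 19 of 31 genes. OL calls were present at 142 (80.2%, 73.6 to 85.8%), beside 85.3% of all regions. OPC calls were present at 85 (48.0%, 40.5 to 55.6%), beside 38.6%, and the median log2 ratio was 0.66. Ratios of 1 or more were seen at 74 (41.8%, beside 37.5% of all regions) and of -1 or less at 18 (10.2%, beside 7.03%). Dlg2, a postsynaptic scaffold gene, held 15 regions, and its extremes ran in opposite directions. The regions 323301 and 414184 bp into it had 23.1 and 23.3 in OL against 1.00 and 2.86 in OPC, and the one between them, 352390 bp in, had 5.72 in OL against 23.3 in OPC. Magi1, a scaffold gene, held 13, with 9 OL calls, 9 OPC calls and a median log2 ratio of 0.10.

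Among receptors for glutamate 14 of 22 genes held 74 deep regions, with OL calls at 54 (73.0%, 61.4 to 82.6%), a share below the 85.3% of all regions. OPC calls were present at 31 (41.9%, 30.5 to 53.9%), beside 38.6%, and the median log2 ratio was 0.56. Ratios of 1 or more were seen at 26 (35.1%, beside 37.5% of all regions) and of -1 or less at 5 (6.76%, beside 7.03%). Grid1, a delta receptor gene, held 14 regions with 13 OL and 4 OPC calls and a median log2 ratio of 1.03, and had 17.2 in OL against 2.41 in OPC at its strongest. Receptors for GABA, acetylcholine and other transmitters held 12 deep regions in 5 of 18 genes, 8 called in OL and 6 in OPC, too few to describe as a group.

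Ion channel genes held 136 deep regions in 33 of 42 genes, with OL calls at 110 (80.9%, beside 85.3% of all regions), OPC calls at 51 (37.5%, beside 38.6%) and a median log2 ratio of 0.91. The log2 ratio was 1 or more at 57 (41.9%, beside 37.5% of all regions) and -1 or less at 16 (11.8%, beside 7.03%). Trpm3, a cation channel gene, held 14, with 9 OL and 8 OPC calls and a median log2 ratio of 0.08. Its region 178378 bp in had 20.1 in OL against 20 in OPC, and one 562323 bp in had 9.56 in OL against 23.1 in OPC. Cacna2d3, a calcium channel subunit gene, held 9 with 8 OL and 3 OPC calls, and 21.5 in OL against 5.64 in OPC at its strongest. Dpp6, a Kv4 channel partner gene, held 8 with 6 OL and 4 OPC calls.

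Axon guidance and neuregulin receptor genes held 117 deep regions in 29 of 34 genes, with OL calls at 93 (79.5%, beside 85.3% of all regions), OPC calls at 47 (40.2%, beside 38.6%) and a median log2 ratio of 0.82. Ratios of 1 or more were seen at 51 (43.6%, beside 37.5% of all regions) and of -1 or less at 14 (12.0%, beside 7.03%). Erbb4, a neuregulin receptor gene, held 13 with 11 OL and 3 OPC calls, and 11.6 in OL against 1.15 in OPC at the strongest. Unc5c and Dcc, which encode netrin receptors, held 12 and 10. The strongest region of Unc5c had 15.9 in OL against 8.96 in OPC, and that of Dcc 17.2 in OL against 10.4 in OPC. Cadherin and protocadherin genes held 52 in 12 of 24 genes, with OL calls at 44 (84.6%, 71.9 to 93.1%), OPC calls at 18 (34.6%, 22 to 49.1%) and a median log2 ratio of 1.18. A ratio of 1 or more was reached by 28 of these (53.8%) and one of -1 or less by 6 (11.5%), beside 37.5% and 7.03% of all regions. Cdh13, a GPI-anchored cadherin gene, held 17 of them, with 15 OL calls, 3 OPC calls and a median of 1.37.

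For the 3 lists of signalling enzymes, the shares of all regions were 85.3% called in OL and 38.6% called in OPC. They were 37.5% at a log2 ratio of 1 or more and 7.03% at -1 or less. Over all deep regions these shares were 83.6%, 38.0%, 44.0% and 8.68%, in the same order. Receptor tyrosine phosphatase genes held 84 deep regions in 9 of 12 genes, with OL calls at 69 (82.1%), OPC calls at 32 (38.1%) and a median log2 ratio of 0.82. The ratio was 1 or more at 38 of them (45.2%) and -1 or less at 4 (4.76%). Ptprg held 17 with a strongest region of 13.7 in OL against 14 in OPC, and Ptprn2 held 17 with 11 OL and 8 OPC calls. Cyclic nucleotide phosphodiesterase genes held 60 in 8 of 11 genes, with OL calls at 44 (73.3%, 60.3 to 83.9%), OPC calls at 27 (45%, 32.1 to 58.4%) and a median of 0.66. Here 17 (28.3%) were at 1 or more, the lowest share of the 15 lists, and 7 (11.7%) at -1 or less. Pde4b had 14 regions, of which one 143687 bp in had 4.0 in OL against 15.1 in OPC and was called in OPC only. Kinase, GTPase regulator and scaffold genes held 273 in 43 of 55 genes, with OL calls at 235 (86.1%), OPC calls at 100 (36.6%) and a median of 0.85, and 118 (43.2%) were at 1 or more and 21 (7.69%) at -1 or less. Alk, a receptor tyrosine kinase gene, held 13 with a median of 0.01, and its strongest region had 5.4 in OL against 16.4 in OPC, whereas Prkca, a protein kinase C gene, held 12, with 12 OL calls, 4 OPC calls and a median of 1.28.

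The remaining lists were regulators of transcription, RNA-binding proteins, fragile site genes and matrix genes, to be read against the same shares of all regions. Transcription and chromatin regulators held 165 deep regions in 30 of 52 genes, with OL calls at 132 (80.0%), OPC calls at 61 (37.0%) and a median log2 ratio of 0.86. Both ends were above the shares of all regions, with 76 (46.1%, beside 37.5%) at 1 or more and 21 (12.7%, beside 7.03%) at -1 or less. Over all deep regions these shares were 44.0% and 8.68%, so the upper end lay close to that of the deep regions. RNA-binding protein genes held 83 in 16 of 21 genes, with OL calls at 68 (81.9%), OPC calls at 32 (38.6%) and a median of 0.95, with 41 (49.4%) at 1 or more and 7 (8.43%) at -1 or less. Msi2, a Musashi translational regulator gene, held 9 of these, the strongest with 17.2 in OL against 13.6 in OPC. Genes that span common fragile sites in human held 161 in 14 of 20 genes, with OL calls at 130 (80.7%), OPC calls at 59 (36.6%) and a median of 0.81, with 71 (44.1%) at 1 or more and 18 (11.2%) at -1 or less. Lrp1b, a lipoprotein receptor gene on that list, held 15 with 13 OL and 6 OPC calls. The list of Csmd, matrix and dystrophin complex genes held 129 in 18 of 28 genes, with OL calls at 109 (84.5%), OPC calls at 53 (41.1%) and a median of 0.93, with 58 (45%) at 1 or more and 12 (9.30%) at -1 or less. In each of the 15 lists the OL call was the more frequent and the median above 0, as over the whole table (median 0.74). With all regions centred at 0, which takes away that 0.74, the medians of glutamate receptors, synaptic organisers and phosphodiesterases would lie below 0.

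**Figure D5:**
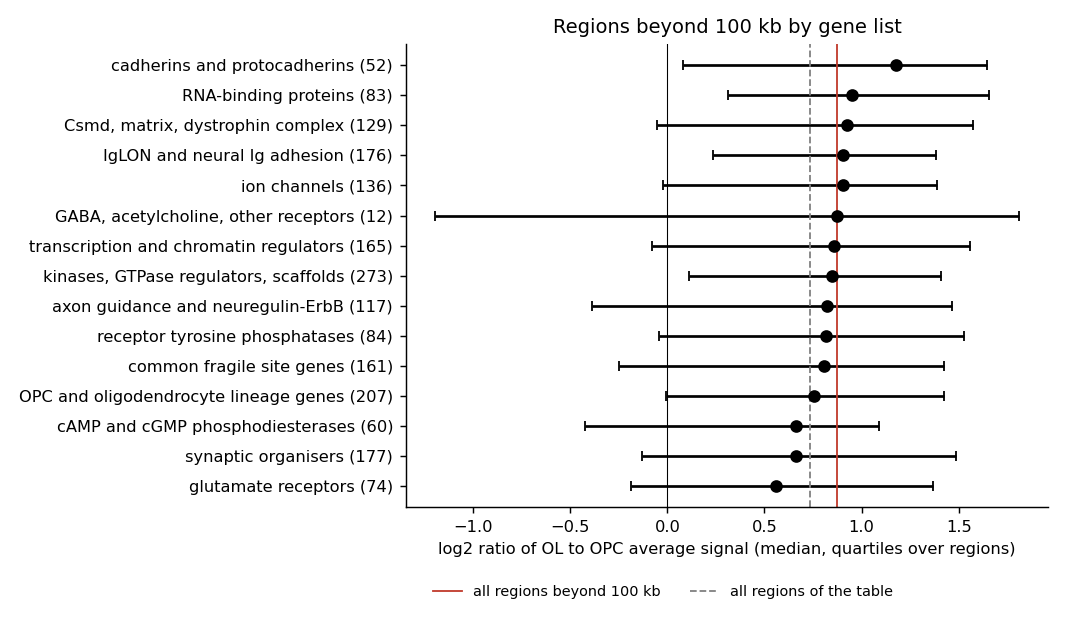
Median log2 ratio (OL over OPC) at the deep regions of each gene list, with quartiles as bars and the number of regions in brackets; the solid line marks all deep regions (0.87) and the dashed line all regions of the table (0.74). List medians run from 0.56 for glutamate receptors to 1.18 for cadherins and protocadherins, and the quartile ranges of all lists overlap.

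A region at the start was found in part of the hosts. Of the 1173 hosts, 499 (42.5%, 39.7 to 45.4%) had a region listed within 1 kb of the start, and in 420 of them it held a CpG island. These start regions were called in OL in 463 of the 499 hosts and in OPC in 192, beside 85.3% and 38.6% of all regions. Their medians were 5.19 in OL against 3.24 in OPC. The strongest deep region of the same 499 hosts had medians of 7.08 in OL against 3.33 in OPC, and in hosts with more than 1 deep region it is the highest of several. In 124 of the 499 the start region was higher than every deep region, by the larger value of both libraries. The median log2 ratio was 0.63 at the starts and 0.91 for the median deep region of the same hosts. Opcml had 4.35 in OL against 4.0 in OPC at -102 bp from its start (upstream), Tnr 6.21 in OL against 4.79 in OPC at 41 bp into the gene, and Rora 1.4 in OL against 5.19 in OPC at -230 bp. These are the starts whose promoter sequences are printed above. The start region of Rora was called in OPC only, while 16 of its 19 deep regions were called in OL.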

How the data were processed

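The authors' deposited table merges the intervals called in the OL and OPC ChIP libraries into regions and marks, per the file headers, which library has a called interval there. For each library it gives an average and a highest signal per region, and the deposited signal values have no stated scaling. The submitters' processing notes list BWA, MACS 1.4.2 and mm9 without their roles. How calls were thresholded, and whether the input entered them, is not given in the sources used here.

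From the table, calls and average signals were counted and summarised with Python 3.11.15, pandas 2.3.3 and scipy 1.17.1, with a pseudocount of 1 and no signal filter. The parsing and the rule for deep regions were checked by a second reading of the deposited rows. The ratio counts were checked with fold changes planted on values of real regions. Regions were named by fixed ranks: the 10 highest in each library, the 10 highest and lowest log2 ratios above the median mean signal, the 10 farthest from a start, 5 on each side of the distance limit, the 15 hosts with the most regions (ties by name) and the 4 leading genes of each list. Others were picked after their values were seen. The members and lists were chosen with earlier results of these data known. Of 1173 host names, 946 matched a symbol and 184 a synonym in the RefSeq table of GRCm38.p6, used for names. Some results that these rules name are not reported here.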

Additional observations from a re-analysis of the deposited data

How the results depend on the processing

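The 11 alternatives gave 45 values, of which 23 stayed within counting error (shares, median) or within 1.5 times (counts). No median changed sign, while shares and counts have no sign to change. Calls needing an average of 5 or more left 50.9% of deep regions called in OL, 22.3% in OPC and 11.3% in both. With the OL calls cut to the strongest, as many as in OPC, 39.2% were called in OL and 14% in both. That cut leaves 38.6% of all regions called in OL by construction. At a mean signal of 3 or more, 43.5% of deep regions were called in OPC and 27.4% in both, with a median log2 ratio of 0.73. The other shares of all regions under these call and signal settings are not given here. The median was 1.08 with a pseudocount of 0.1, 0.46 with 5, 1.22 from the highest signal, 0.63 centred on regions called in both and 0.14 centred on all regions. Ratios of 1 or more numbered 524 with a pseudocount of 5 and 780 centred on all regions, and ratios of -1 or less 56 and 892, or 600 from the highest signal. Before centring, 1973 regions were at 1 or more and 389 at -1 or less, so centring on all regions turned the balance. The same held over the whole table, with 13991 and 2621 before this centring and 4909 and 6522 after it. Distance limits of 50 and 200 kb, which change the number of regions to 7146 and 2264, gave 3149 and 985 ratios of 1 or more and 587 and 204 of -1 or less. The overlap that counts as shared could not be varied, because the regions were deposited already merged. No paired analysis was possible because each state has 1 library. Unknown depth and unknown scaling limit every ratio between libraries.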

Other observations

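A call and a high average did not always go together. A region in Chl1, 138339 bp from the start, had 18.2 in OL and 15.6 in OPC but was called in OPC only. The longest deep region, 3418 bp in Mid1 on chromosome X, was likewise called in OPC only, with 5.61 in OL and 10.4 in OPC.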
